A study of Homo sapiens with 20 samples.

Results

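The nuclear genes of respiratory complexes II, III, IV and V were described in wild type and NAT10 knockout K562 cells. NAT10 is an enzyme that acetylates cytidine in RNA to N4-acetylcytidine (ac4C). Members were taken by symbol from the Ribo-seq count tables: SDHA, SDHB, SDHC, SDHD, and every symbol starting with UQCR, ATP5, or COX followed by a digit. This gave 59 of 20401 genes, of which 4 belong to complex II, 9 to complex III, 26 to complex IV and 20 to complex V. The symbol rule also takes in 9 assembly factors of complex IV, UQCRHL, ATP5MGL and the read-through gene ATP5MF-PTCD1, and it leaves out CYC1, NDUFA4 and the subunits encoded in mitochondrial DNA, which are given separately. K562 is an established human erythroleukaemia line. The knockout cells had exon 5 of NAT10 removed with CRISPR-Cas9 and the wild type cells were the parental line, with no drug or differentiation treatment named for either genotype. Whether the knockout line is a single clone, and whether libraries came from separate cultures, is not stated in the labels. The p-values therefore reflect the spread between libraries alone, which may be technical. RNA-seq and Ribo-seq (sequencing of the mRNA fragments held by ribosomes, here called footprints) had 2 libraries per genotype, and ac4C immunoprecipitation had pooled peak lists for the ac4C antibody and for an IgG control in each genotype.

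The respiratory chain sits in the inner mitochondrial membrane. Complex II (succinate dehydrogenase) passes electrons from succinate to ubiquinone, complex III passes them on to cytochrome c, complex IV passes them to oxygen, and complex V (the ATP synthase) uses the proton gradient that complexes III and IV help to build to make ATP. Most subunits are encoded in the nucleus, translated on cytosolic ribosomes and imported, while the core of complexes III and IV and the proton channel of complex V also need subunits made on mitochondrial ribosomes. Complex II is wholly nuclear encoded. Early erythroid cells need mitochondria for heme synthesis, and red cells later lose them.

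Promoters are shown first for the 4 members with the lowest adjusted p in the RNA comparison below (UQCR10, UQCRQ, ATP5IF1 and ATP5MK) and for ATP5ME, an RNA riser with the NRF1-type motif. They are the 250 bases before the annotated start, from RefSeq on GRCh38.p14, on the sense strand, and 46 of the 59 members had an entry. Capitals mark matches on either strand to an NRF1-type motif (GCATGCG) or an ETS-type motif (CCGGAAG), and the YY1 core AAGATGG was searched as well. NRF1, ETS-family proteins such as GABPA, and YY1 are transcription factors known for nuclear respiratory genes.
UQCR10 (chr22:29767119-29767368, plus strand): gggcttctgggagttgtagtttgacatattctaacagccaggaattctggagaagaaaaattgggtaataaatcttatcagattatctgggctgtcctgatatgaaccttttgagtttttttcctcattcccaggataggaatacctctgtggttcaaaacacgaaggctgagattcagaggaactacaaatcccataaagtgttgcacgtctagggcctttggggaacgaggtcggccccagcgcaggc
UQCRQ (chr5:132866392-132866641, plus strand): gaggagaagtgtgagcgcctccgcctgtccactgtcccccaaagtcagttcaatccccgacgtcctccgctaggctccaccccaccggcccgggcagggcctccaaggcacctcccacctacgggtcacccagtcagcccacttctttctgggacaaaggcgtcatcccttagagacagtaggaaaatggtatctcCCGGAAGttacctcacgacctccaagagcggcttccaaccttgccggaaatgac
ATP5IF1 (chr1:28235874-28236123, plus strand): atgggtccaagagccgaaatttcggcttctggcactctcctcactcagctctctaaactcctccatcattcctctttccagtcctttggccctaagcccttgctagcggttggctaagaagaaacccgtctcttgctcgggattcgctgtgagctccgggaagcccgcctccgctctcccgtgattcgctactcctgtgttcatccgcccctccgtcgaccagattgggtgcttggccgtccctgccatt
ATP5MK (chr10:103396476-103396725, minus strand): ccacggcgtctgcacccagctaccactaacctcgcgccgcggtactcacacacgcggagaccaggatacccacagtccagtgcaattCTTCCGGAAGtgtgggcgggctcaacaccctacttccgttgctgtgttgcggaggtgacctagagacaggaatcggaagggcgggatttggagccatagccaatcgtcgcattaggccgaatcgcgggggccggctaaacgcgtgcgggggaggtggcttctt
ATP5ME (chr4:674277-674526, minus strand): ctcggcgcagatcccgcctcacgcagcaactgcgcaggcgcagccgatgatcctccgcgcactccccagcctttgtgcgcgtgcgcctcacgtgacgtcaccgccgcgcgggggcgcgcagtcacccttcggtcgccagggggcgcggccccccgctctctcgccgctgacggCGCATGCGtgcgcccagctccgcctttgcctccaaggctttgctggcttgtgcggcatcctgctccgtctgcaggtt
In ATP5MK the capitals are a pair of ETS-type matches on opposite strands that overlap, and in ATP5ME a pair of NRF1-type matches in the same way. UQCRQ holds 1 ETS-type match, and UQCR10 and ATP5IF1 hold none of the 3 motifs in this window.

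Among the 46 member promoters 10 (21.7%) held the NRF1-type motif, against 3.57% of all 27305 promoters of the same length. The ETS-type motif was in 14 (30.4%) against 8.82%, and the YY1 core was in 3 (6.52%) against 3.77%. At least 1 of the 3 motifs was in 21 member promoters (45.7%) and in 15.0% of all promoters. Of the 10 members whose RNA rose, 5 held at least 1, which is 50.0%. These are letter matches and not measured binding. The set of all promoters was not limited to genes expressed in K562 or matched for base content, so the contrast may not be particular to respiratory genes.

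NAT10 itself was lower in both knockout libraries of each assay. Its RNA log2 fold change (knockout minus wild type, here and throughout) was -1.51 (SE 0.085, edgeR adjusted p = 0.000102) and that of its footprints was -1.82 (SE 0.19, edgeR adjusted p = 0.000334). RNA-seq totals were 10388717 to 18778485 counts and Ribo-seq totals 621287 to 1220308. The 2 knockout RNA-seq libraries agreed almost within counting noise (chi-square 1.03 per degree of freedom, against 12.5 for the wild type pair), so they were summed and counted as 1 sample. In the RNA fit that lone sample is assumed to vary like the wild type libraries, with 1 residual degree of freedom. All 10 K562 markers were measured, 5 rising and 1 (GATA1) falling in RNA. Summed RNA of 5 lymphocyte markers was 28.3 to 31.0 CPM (counts scaled to a common library size) in knockout and 39.8 to 42.1 in wild type, with MS4A1 at 0. Summed RNA of 5 granulocyte and monocyte markers was 6.71 to 6.74 CPM against 12.4 to 14.6, and that of 5 fibroblast markers was 2.10 to 2.50 against 2.79 to 3.46, with LUM at 0. Summed RNA of 5 epithelial markers was 461 to 471 against 570.0 to 605, and the part of these marker differences in the results was not tested. None of the 59 members lies between NAT10 and the short-arm tip of chromosome 11, and the 3 members on that chromosome are SDHD, COX8A and ATP5MG.

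Members together took 0.717% of RNA-seq counts in each knockout library, against 0.680% and 0.671% in wild type. They took 1.70% and 1.56% of footprints in the knockout and 1.60% and 1.52% in the wild type, so the RNA shares did not overlap between genotypes and the footprint shares did. Per kilobase of the first-numbered coding transcript, wild type RNA was highest for UQCRH, the hinge protein of complex III (530 and 598 CPM per kilobase), and ATP5F1B, the catalytic beta subunit of the ATP synthase (583 and 574). The ranges of these 2 genes overlap. Of the members with such a transcript on the peak lists, ATP5MGL (0.121 and 0) and ATP5MF-PTCD1 (0 and 0.126) were lowest and overlap. COX4I2, COX6A2, COX7A1, COX7B2 and COX8C had no transcript there to scale by. A long first transcript lowers this measure, as for UQCRB, whose first transcript has 8459 bases.

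In RNA, 10 of 53 tested members rose and 0 fell by edgeR at an adjusted p under 0.05, while 5.17% of all 16277 tested genes rose and 8.79% fell. The median log2 fold change was 0.12 over the members and 0.00 over all genes, with 40 members above 0 and 13 below. The risers were the complex III subunits UQCR10, UQCRQ and UQCR11, the complex IV assembly factor COX14, and 6 genes of complex V. At an unadjusted p under 0.05 there were 16 members (28.9% of all genes). In 31 members both knockout libraries lay above both wild type libraries and in 8 below, against 33.1% and 34.1% of all genes. The rises were small, from 0.29 to 0.56 on the log2 scale. DESeq2 on the same samples called 3 of the 10, UQCR10, UQCRQ and ATP5IF1, and leaving out knockout replicate 1 ended the calls of ATP5F1E and ATP5ME. The median was 0.18 against wild type replicate 1 alone and 0.11 against wild type replicate 2 alone, and 34 of the 53 members were positive against both. The RNA table lists 136 pseudogenes of 34 members, and reads of near-identical copies may be split or shared.

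In footprints, 1 of 48 tested members rose, ATP5MF, and 0 fell, against 1.47% and 3.87% (5.34% in either direction) of all 8887 tested genes. Their median log2 fold change was 0.06, and 0.00 over all genes, with 28 members above 0 and 20 below. At an unadjusted p under 0.05 there were 12 members, against 20.9% of all genes. Knockout libraries lay wholly above wild type in 17 members and wholly below in 8, against 27.6% and 24.2% of all genes. Footprints were sparse for some members, since 6 had 0 in all 4 libraries and 10 had fewer than 10 in total.

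**Figure D1:**
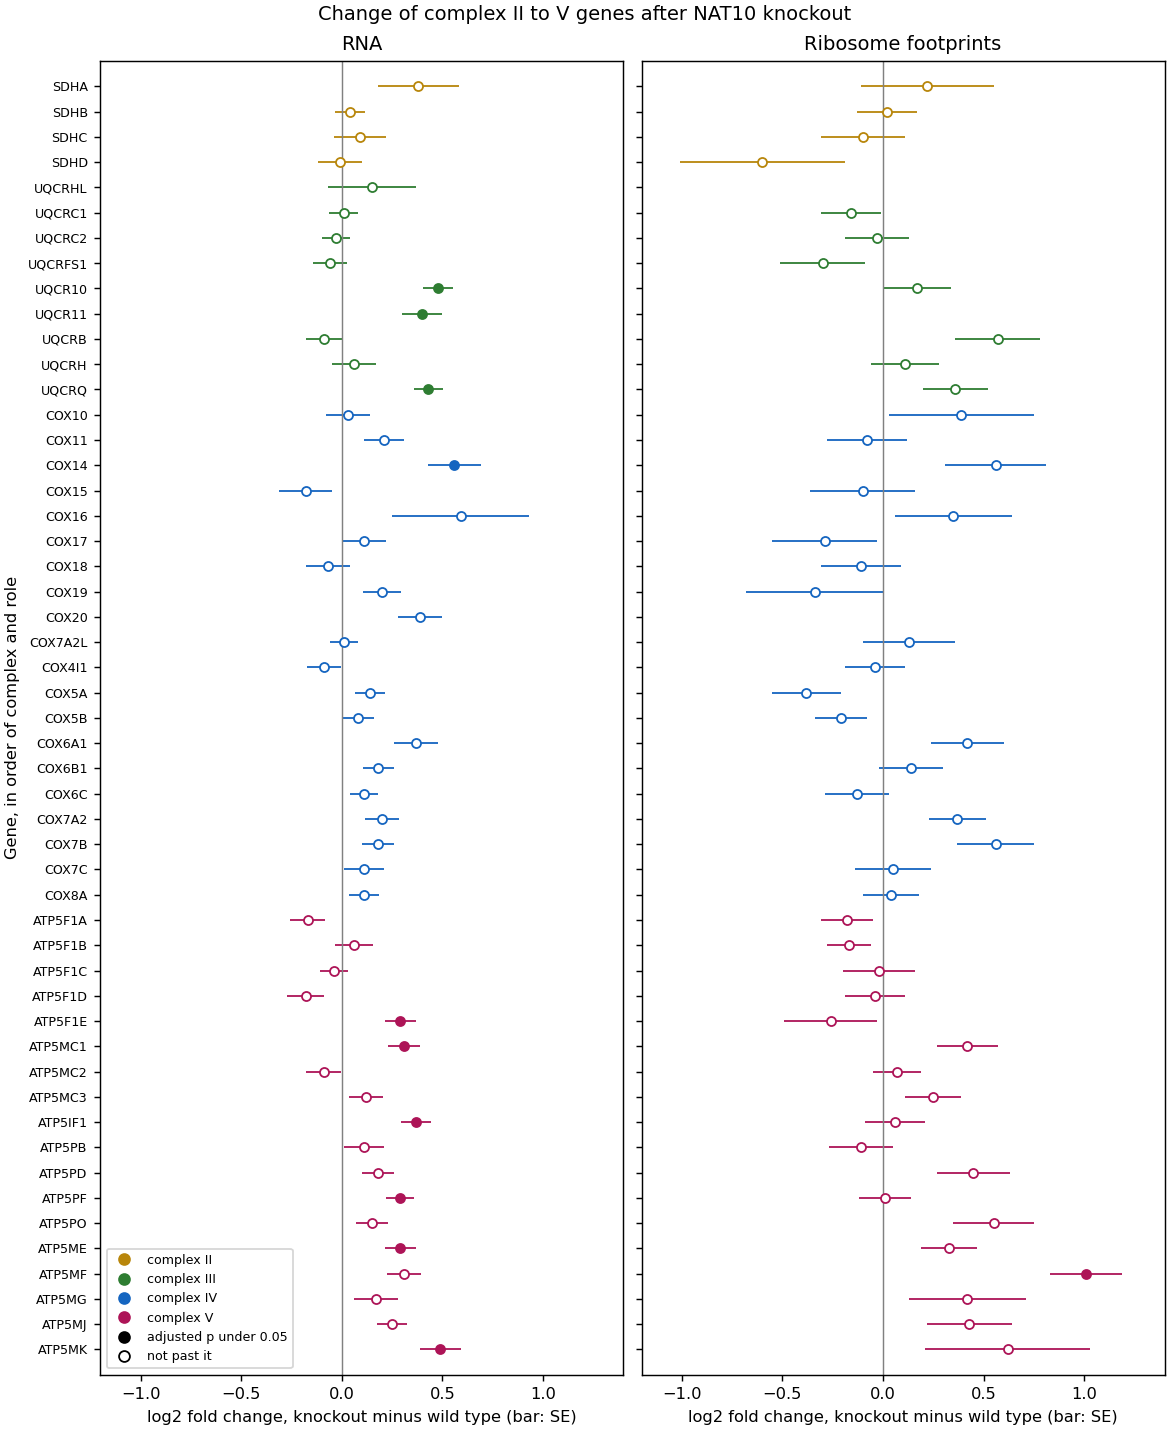
RNA (left) and footprint (right) log2 fold change, knockout minus wild type, of each tested gene with its SE, coloured by complex and ordered by complex and role, with 2 RNA values of SE over 0.5 (COX6B2 and COX7B2) left out. Filled points passed an adjusted p of 0.05: 10 genes in RNA, all to the right of 0, and ATP5MF in footprints.

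Complex II genes did not pass the test in RNA or footprints. SDHA, the flavoprotein that oxidises succinate (chr5:218320-268746), had RNA counts of 199 and 220 in the knockout and 105 and 95 in the wild type, with every knockout library higher in CPM. Its log2 fold change was 0.38 (SE 0.20, edgeR adjusted p = 0.258), the highest of the complex. SDHB, the iron-sulfur subunit, was level, at 76.4 and 76.0 CPM in the knockout and 76.2 and 72.5 CPM in the wild type (log2 fold change 0.04, SE 0.074). The membrane anchors SDHC and SDHD, which hold the ubiquinone site, had RNA log2 fold changes of 0.09 (SE 0.13) and -0.01 (SE 0.11). Footprint log2 fold changes were 0.22 (SE 0.33) for SDHA, 0.02 (SE 0.15) for SDHB, -0.10 (SE 0.21) for SDHC and -0.60 (SE 0.41, edgeR adjusted p = 0.426) for SDHD. SDHD rested on 13 and 8 footprints in the knockout and 18 and 19 in the wild type, both knockout libraries being below wild type at 11.1 and 12.9 CPM against 14.8 and 20.8. SDHA has few RNA counts (95 to 220 per library) while its 4 listed pseudogenes hold 405 counts over the wild type libraries, so its level is uncertain.

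In complex III 3 of 5 small subunits rose in RNA and 0 of 3 core subunits did. UQCR10, which sits beside the cytochrome c1 subunit (chr22:29767369-29770413), had 96.0 and 99.7 CPM in the knockout and 74.1 and 67.3 in the wild type. Its log2 fold change was 0.48 (SE 0.075, edgeR adjusted p = 0.00588). UQCRQ, the ubiquinone-binding small subunit (chr5:132866642-132868847), had 129 and 126 CPM in knockout against 100.2 and 90.1 in wild type, a log2 change of 0.43 (SE 0.073, edgeR adjusted p = 0.00860). For both, every knockout library was above every wild type library. UQCR11, the smallest subunit (chr19:1597169-1605462), had 56.9 and 55.1 CPM in the knockout and 41.5 and 43.2 in the wild type (log2 fold change 0.40, SE 0.10, edgeR adjusted p = 0.0350). The median of the 5 was 0.40. Not past the test were UQCRH, the hinge protein (0.06, SE 0.11), and UQCRB, which helps to form the ubiquinone site (-0.09, SE 0.089, the lowest of the complex). The 3 core subunits UQCRC1, UQCRC2 and UQCRFS1, the last being the Rieske iron-sulfur protein, had values of 0.01, -0.03 and -0.06. UQCRHL, an intronless copy of UQCRH on chromosome 1, had 6.64 to 9.21 CPM over the 4 libraries and a value of 0.15 (SE 0.22), and its reads may come in part from UQCRH.

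No complex III member passed the footprint test. All 4 tested small subunits had positive values, with a median of 0.27, and all 3 core subunits negative ones, with a median of -0.16. UQCRB stood highest, with 241 and 174 CPM in the knockout and 161 and 114 in the wild type. Its value was 0.57 (SE 0.21, edgeR adjusted p = 0.137), and both knockout libraries exceeded both wild type libraries. UQCRQ was at 0.36 (SE 0.16), with 439 and 372 CPM against 344 and 273. UQCR10 was at 0.17 (SE 0.17), with overlapping libraries at 237 and 288 CPM in the knockout and 209 and 244 in the wild type. UQCRFS1 stood lowest at -0.30 (SE 0.21). UQCR11 is listed at 0 footprints in all 4 libraries, beside 431 to 1035 RNA counts per library. Whether the footprint counting could assign reads to this gene is not known, so no upper limit is given.

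**Figure D2:**
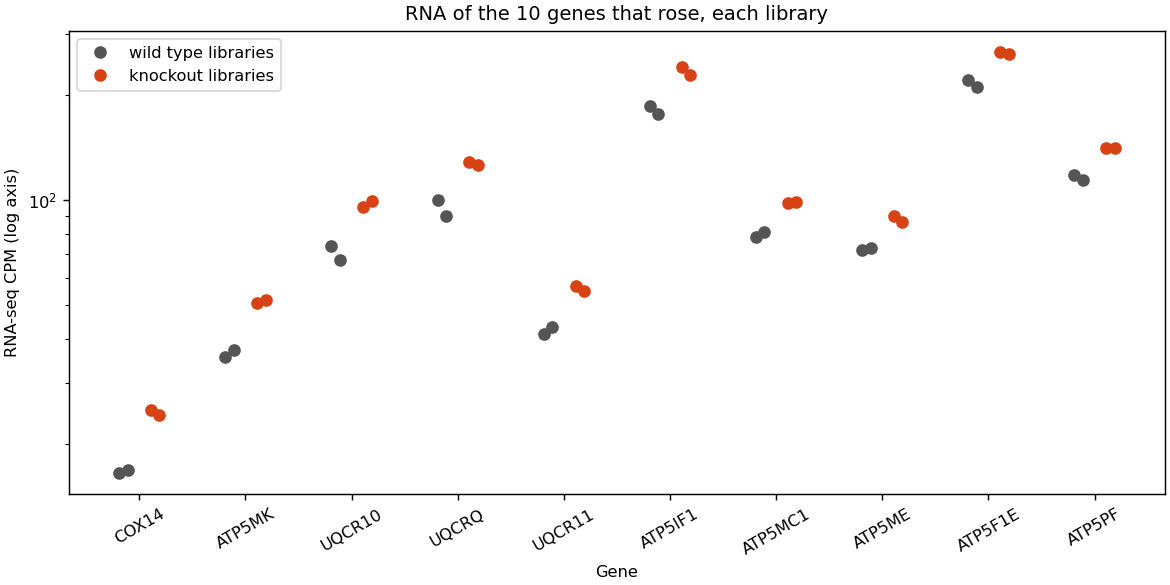
RNA-seq CPM (log axis) of the 10 genes that rose, with 1 point per library, 2 wild type (grey) and 2 knockout (orange). In each gene both knockout points lie above both wild type points, and the knockout pair was counted as 1 sample in the test.

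Complex IV held 1 RNA riser among 22 tested members, and its widely expressed subunits lay slightly above 0. COX14, an early assembly factor that works with the newly made COX1 protein (chr12:50112236-50120453), had 25.0 and 24.2 CPM in the knockout and 16.6 and 16.8 in the wild type. The log2 fold change was 0.56 (SE 0.13, edgeR adjusted p = 0.0300). COX16, which helps copper reach the COX2 subunit, was higher still at 0.59 but on 21 to 58 counts per library (SE 0.34, edgeR adjusted p = 0.299). COX20, a chaperone of COX2, had a value of 0.39 (SE 0.11, edgeR adjusted p = 0.0523). Of the 9 assembly factors 1 rose, and their median was 0.20. The lowest of them was COX15, a heme A synthesis enzyme, at -0.18 (SE 0.13).

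None of the 10 widely expressed structural subunits passed the RNA test, although 9 were positive (median 0.13). COX6A1 had the highest value, with 45.8 and 44.6 CPM in the knockout and 33.9 and 36.1 in the wild type (0.37, SE 0.11, edgeR adjusted p = 0.0653). COX4I1, the subunit that binds regulatory nucleotides, was the negative gene, with 314 and 318 CPM in the knockout and 346 and 330.1 in the wild type (-0.09, SE 0.084). The remaining paralogue-set members of this class were COX6B1 (0.18, SE 0.077), COX7A2 (0.20, SE 0.085), COX7B (0.18, SE 0.079) and COX8A (0.11, SE 0.074). COX7A2L, which joins complexes III and IV into supercomplexes, was level at 0.01 (SE 0.069).

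The tissue-type isoforms of complex IV were at or near 0. COX4I2, COX6A2, COX7A1 and COX8C, the isoforms known from lung, heart, muscle or testis, had 0 to 3 RNA counts in any library and 0 footprints. COX6B2, known from testis, had 10 and 12 RNA counts in the knockout and 8 and 14 in the wild type (-0.66, SE 0.67). COX7B2 had the lowest RNA value of all members, -1.49, but on 3 and 3 counts in knockout against 1 and 10 in wild type (SE 1.3, edgeR adjusted p = 0.518). Neither differed beyond the spread between libraries, and the forms of COX4, COX6A, COX6B, COX7A, COX7B and COX8 that carried the signal were the widely expressed ones in both genotypes.

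Footprints of complex IV ran in both directions, and 0 of 19 members passed the test. COX7B had 252 and 177 CPM in the knockout and 143 and 147 in the wild type (0.56, SE 0.19, edgeR adjusted p = 0.107). COX14 was at 0.56 as well (SE 0.25, edgeR adjusted p = 0.229), with 44.3 and 46.7 CPM in the knockout and 31.96 and 27.4 in the wild type. COX7A2 and COX6A1 were at 0.37 (SE 0.14) and 0.42 (SE 0.18). COX5A, a matrix-side subunit, stood lowest at -0.38 (SE 0.17, edgeR adjusted p = 0.205), with 399 and 301 CPM in the knockout and 486 and 414 in the wild type. In these 5 genes the libraries of the genotypes did not overlap. COX4I1 (-0.04), COX6B1 (0.14), COX7A2L (0.13) and COX8A (0.04) lay within 1 SE of 0.

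Complex V held 6 of the 10 RNA risers among 18 tested members. They come from the small membrane subunits, the peripheral stalk, the c ring, the central stalk and the inhibitor. ATP5MK, a small subunit of the dimer interface that was earlier called DAPIT (chr10:103389050-103396475), had 50.8 and 51.7 CPM in the knockout and 35.6 and 37.2 in the wild type. Its log2 fold change was 0.49 (SE 0.10, edgeR adjusted p = 0.0192), the highest of the complex. ATP5IF1, the inhibitor that blocks ATP hydrolysis by the enzyme (chr1:28236124-28238100), had 241 and 229 CPM in the knockout and 186 and 177 in the wild type, a value of 0.37 (SE 0.074, edgeR adjusted p = 0.0152).

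ATP5MC1, which encodes c ring protein (chr17:48892787-48895871), had 98.0 and 98.9 CPM in the knockout and 78.4 and 81.2 in the wild type (0.31, SE 0.079, edgeR adjusted p = 0.0398). ATP5MC2 and ATP5MC3 encode the same mature protein with other import signals and were at -0.09 (SE 0.088) and 0.12 (SE 0.086). These 2 genes held most of the c ring RNA counts, at 391 to 393 and 382 to 389 CPM in knockout. Per kilobase of the first-numbered transcript, knockout CPM was 164.0 and 165.4 for ATP5MC1. It was 219.4 and 218.2 for ATP5MC2, and 147.8 and 150.4 for ATP5MC3. Protein was not measured. Summed over the 3 genes, the c ring share of RNA counts was 0.0874% and 0.0879% in the knockout and 0.0857% and 0.0848% in the wild type.

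ATP5PF, the F6 subunit of the peripheral stalk (chr21:25724500-25735653), had 141.7 and 141.7 CPM in the knockout and 118 and 114 in the wild type (0.29, SE 0.069, edgeR adjusted p = 0.0310). ATP5ME, subunit e (chr4:672436-674276), had 90.4 and 86.6 CPM against 71.9 and 72.9 (0.29, SE 0.077, edgeR adjusted p = 0.0433). ATP5F1E, the epsilon subunit of the central stalk (chr20:59025475-59032335), had 266 and 263 CPM against 222 and 212 (0.29, SE 0.077, edgeR adjusted p = 0.0450). Groups did not overlap in any of the 3.

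None of the large subunits of the catalytic head passed the RNA test. ATP5F1A, the alpha subunit, had 324 and 335 CPM in the knockout and 373 and 371 in the wild type (-0.17, SE 0.088, edgeR adjusted p = 0.246). ATP5F1D, the delta subunit of the central stalk, was the lowest of the complex at -0.18 (SE 0.093), with 255 and 254 CPM against 310.3 and 268. ATP5F1B, the most abundant member in RNA counts, had 1061 and 1062 CPM in the knockout and 1025 and 1009 in the wild type (0.06, SE 0.095). The median was -0.04 over the 5 head and central stalk genes, 0.17 over the 4 peripheral stalk genes and 0.29 over the 5 small membrane subunits. With the knockout libraries kept apart, ATP5F1A and ATP5F1D were called as falls. The difference between role groups was not tested.

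ATP5MF was the member whose footprints rose. It encodes subunit f, a small membrane subunit of the ATP synthase (chr7:99458195-99466167). Its footprints numbered 365 and 195 in knockout, or 311 and 314 CPM, and 213 and 116 in wild type, or 175 and 127 CPM. Knockout libraries were thus nearly equal to each other and above both wild type libraries. The log2 fold change was 1.01 (SE 0.18, edgeR adjusted p = 0.00687). Its RNA stood at 134 and 136 CPM in the knockout and 105 and 113 in the wild type (0.31, SE 0.086, edgeR adjusted p = 0.0533). The read-through gene ATP5MF-PTCD1 overlaps it and had at most 10 RNA counts and 3 footprints in a library, which the counting may have shared with ATP5MF.

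No other complex V gene passed the footprint test. All 5 small membrane subunits, ATP5MF among them, had positive values (median 0.43), including ATP5MK at 0.62 on 9 to 36 footprints per library (SE 0.41). All 3 c ring genes were positive, with ATP5MC1 at 0.42 (SE 0.15), ATP5MC2 at 0.07 (SE 0.12) and ATP5MC3 at 0.25 (SE 0.14), and in each both knockout libraries lay above wild type. The 4 peripheral stalk genes ranged from -0.11 (ATP5PB) to 0.55 (ATP5PO), with a median of 0.23. All 5 head and central stalk genes had negative values (median -0.17). ATP5F1E was the lowest at -0.26 (SE 0.23), with 215 and 138 CPM in the knockout and 254 and 165 in the wild type, which overlap. The small membrane subunits together took 0.0963% and 0.0946% of footprints in the knockout and 0.0713% and 0.0565% in the wild type, while the head and central stalk took 0.481% and 0.441% in the knockout and 0.503% and 0.502% in the wild type.

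**Figure D3:**
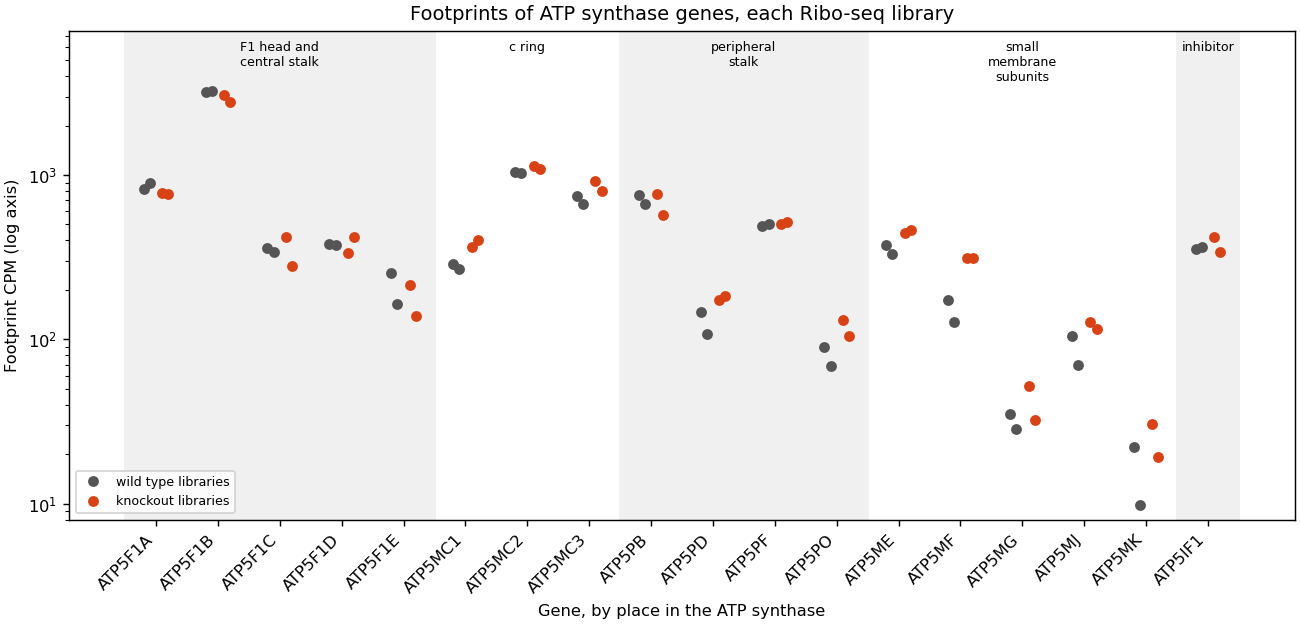
Footprint CPM (log axis) of the 18 tested ATP synthase genes in 2 wild type (grey) and 2 knockout (orange) Ribo-seq libraries, grouped by place in the enzyme. Both ATP5MF knockout points, at 311 and 314, lie above the wild type points at 175 and 127, and ATP5F1A and ATP5F1B lie lower in knockout.

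RNA and footprints came from separate libraries and could be set side by side for 48 members. Both log2 fold changes were positive in 26 members and both negative in 9. RNA was positive and footprints negative in 11, and the reverse held in 2. Of the 9 RNA risers tested in footprints, 8 had a positive value there, as did 4486 of all 8887 genes. In 5 of the 9 (COX14, UQCRQ, ATP5MC1, ATP5ME and ATP5PF) both knockout footprint libraries lay above both wild type libraries, against 27.6% of all genes. Both all-gene figures cover genes whatever their RNA change. The same figures over all genes that rose in RNA were not computed, so this contrast is not shown to be particular to members. Whether the 2 assays moved together was not tested. ATP5F1E was the riser with a negative footprint value.

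**Figure D4:**
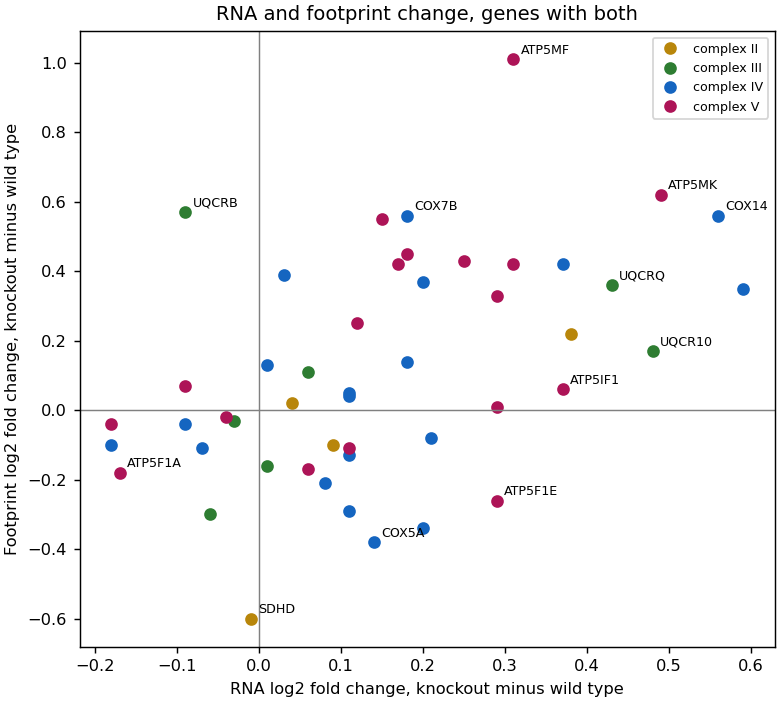
RNA log2 fold change (x axis) against footprint log2 fold change (y axis), knockout minus wild type, for the 48 genes with both, coloured by complex. ATP5MF stands apart at 0.31 and 1.01, UQCRB has a negative RNA and a positive footprint value, and SDHD is lowest at -0.60 in footprints.

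Translational efficiency, the change in footprints beyond the change in RNA, was taken from a model of all libraries, as the interaction between assay and genotype. By edgeR 0 of 48 members and 0 of 8821 genes were called, so the background was 0%. At an unadjusted p under 0.05 there were 3 members, against 9.39% of all genes, and DESeq2 called 0 members and 12 genes. The median was 0.00 over members and 0.01 over all genes. The highest value in complex V was ATP5MF at 0.70 (SE 0.20, edgeR adjusted p = 0.413), in complex III UQCRB at 0.67 (SE 0.24, edgeR adjusted p = 0.474), in complex IV COX7B at 0.40 (SE 0.21) and in complex II SDHB at -0.01 (SE 0.16). The lowest were SDHD at -0.58 (SE 0.39), ATP5F1E at -0.52 (SE 0.28), COX5A at -0.51 (SE 0.20) and UQCR10 at -0.30 (SE 0.18). NAT10 was at -0.29 (edgeR adjusted p = 0.681).

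In wild type the ratio of footprint CPM to RNA CPM had a median of 2.03 over 48 members, against 1.01 over 8606 genes with at least 20 counts in each assay. ATP5ME had a ratio of 4.87 (4.51 to 5.23 over pairings of the libraries), COX5B 5.00 (4.59 to 5.46) and ATP5F1B 3.18 (3.13 to 3.23). ATP5MK had the lowest ratio, 0.440 (0.266 to 0.621), on 36 footprints, and UQCRH was also under 1 at 0.657 (0.553 to 0.775). COX16 had the highest at 13.5, on 46 RNA counts, and it shares sequence with the read-through gene SYNJ2BP-COX16. These ratios are per gene and not per length, and their size also depends on duplicate removal in 2 kinds of library.

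Shorter members had the higher values. The 26 tested members with a first-numbered transcript under 1 kb had a median RNA log2 fold change of 0.22, the 13 of 1 to 2 kb 0.01, the 9 of 2 to 4 kb 0.12 and the 4 longer ones -0.08. In footprints the same classes, of 24, 12, 8 and 4 members, had medians of 0.25, -0.06, 0.02 and -0.10. Across genes the Spearman correlation of length with log2 fold change was -0.43 in RNA (52 members) and -0.36 in footprints (48 members). Genes are not independent replicates, and these points share their libraries. Over the 8080 footprint-tested genes with a length, which are 90.9% of all, it was 0.09, and the 792 genes under 1 kb had a median of 0.03. In RNA a length was at hand for 9627 genes, which are 78.7% of the 12238 RNA-tested genes of the footprint table. Over these the correlation was -0.08, and the 925 genes under 1 kb had a median of 0.09. Genes without a length are not covered. The first-numbered transcript may also not be the main form of a gene. UQCRB is classed at 8459 bases, while its wild type antibody peak spans bases 4 to 591. The part of length in the results was not tested.

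Of the partner genes outside the symbol rule, UQCC2 and COA4 rose in RNA and FASTKD3 in footprints. Among all tested genes 5.17% rose in RNA and 1.47% in footprints. Cytochrome c1 (CYC1), the complex IV subunit NDUFA4 and cytochrome c (CYCS) had RNA values of 0.07, 0.13 and 0.22, and 0 of 3 passed the test in RNA or footprints. Among 9 assembly factors of complex III, 1 rose in RNA, UQCC2, which helps to make cytochrome b (0.46, SE 0.094, edgeR adjusted p = 0.0170), at 59.6 and 59.7 CPM in the knockout and 43.5 and 43.5 in the wild type. Of 19 further assembly factors of complex IV, 1 rose in RNA, COA4 (0.40, SE 0.087, edgeR adjusted p = 0.0217). In footprints 1 of 16 of these rose, FASTKD3, an RNA-binding protein of mitochondria, with 42.6 and 46.7 CPM in the knockout and 21.3 and 16.5 in the wild type (1.17, SE 0.29, edgeR adjusted p = 0.0346). The FASTKD3 call was lost without either wild type replicate (1.39 and 1.02), and DESeq2 called none of the 3 genes. Neither the 4 assembly factors of complex II, the 5 of complex V, nor the 9 tested regulators of nuclear respiratory genes held a call in RNA or footprints. Median RNA values of the lists were 0.13 for complex III assembly, 0.16 for complex IV assembly, 0.02 for complex II assembly, 0.05 for complex V assembly and 0.16 for the regulators. Their footprint medians were 0.24, 0.05, -0.35, 0.04 and -0.09 in the same order. In each of these lists footprint values spanned a wider range than RNA values, up to 1.35 for a complex IV assembly factor (HIGD1A, not past the test).

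No subunit encoded in mitochondrial DNA passed the test, with 6 tested in RNA and 4 in footprints. Their counted RNA was low, at 17.0 to 26.8 CPM for MT-CO1 and 2.66 to 5.11 for MT-ATP6 over the 4 libraries. The nuclear ATP5F1B had 1009 to 1062. What share of mitochondrial transcripts the counting kept is not known. In RNA, MT-CO1 was at -0.40 (SE 0.17), MT-CO2 at -0.10 (SE 0.21), MT-CO3 at -0.30 (SE 0.21), MT-CYB at -0.04 (SE 0.19), MT-ATP6 at -0.53 (SE 0.25) and MT-ATP8 at 0.42 (SE 0.65), a median of -0.20. Footprint values of the 4 tested genes were 1.21 (SE 0.64) for MT-CO1, 0.76 (SE 0.51) for MT-CO2, 1.35 (SE 0.48) for MT-CO3 and 0.51 (SE 0.17, edgeR adjusted p = 0.111) for MT-CYB, a median of 0.98. MT-CYB had 153 and 180.3 footprint CPM in the knockout and 118 and 108 in the wild type. The 3 MT-CO genes rested on 3 to 24 footprints per library, and the MT-CO1 libraries overlapped, at 9.37 and 30.6 CPM against 10.7 and 3.29.

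The ac4C antibody peaks on these transcripts coincided with IgG peaks. In wild type 51 of 59 members had an antibody peak on any transcript, and all 51 also had an IgG peak, while 40.4% and 41.1% of all genes had them. In knockout the antibody list held 54 members and the IgG list the same number, and all 54 were in both (57.3% and 55.6% of all genes). Peak shares of all genes, here and below, are out of the 20401 genes of the Ribo-seq count tables, whether expressed or not. The part of expression in the difference from members was not tested. The peak lists are the authors' calls on pooled libraries with fold values over input, so they carry no replicate error. The lists were used as labelled, and beyond the names of lists and peaks nothing in them shows which libraries each was made from, so antibody and IgG values hold only as far as the labels do. On the first-numbered transcripts the median of the strongest peak was 46.8-fold for the antibody and 48.1-fold for IgG in wild type, against 5.56-fold and 5.64-fold over all genes with a peak. It was 14.6-fold and 13.1-fold in knockout, against 7.51-fold and 7.97-fold. The strongest antibody and IgG summits lay within 100 bases of each other in 48 of 51 members in wild type and in 41 of 52 in knockout. The antibody peak was the higher in 11 of 51 members in wild type and in 27 of 52 in knockout. Neither the summit distance nor this comparison was counted over all genes, so these counts are not shown to be particular to members. A window of 100 bases is also a large part of the shorter transcripts.

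Single genes show the same picture. UQCRH had a peak of 260.0-fold with the antibody and 275-fold with IgG in wild type, with summits at bases 225 and 226 of UQCRH-201, and 68.1-fold and 51.1-fold in knockout. ATP5MF had 151-fold and 154-fold in wild type and 20.9-fold and 15.7-fold in knockout. UQCR10 had 86.3-fold and 89.4-fold in wild type and 11.3-fold and 10.7-fold in knockout. UQCR11, ATP5ME and COX5B had the antibody peak higher in knockout, at 19.3-fold against 9.96-fold, 17.5-fold against 9.25-fold and 43.5-fold against 21.8-fold, with values of 15.3-fold against 15.5-fold, 94.2-fold against 109-fold and 175-fold against 176-fold in wild type. SDHD was the other way round in knockout, at 24.5-fold with the antibody and 58.5-fold with IgG. UQCR11, ATP5ME, COX5B and SDHD were singled out after their values were seen.

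**Figure D5:**
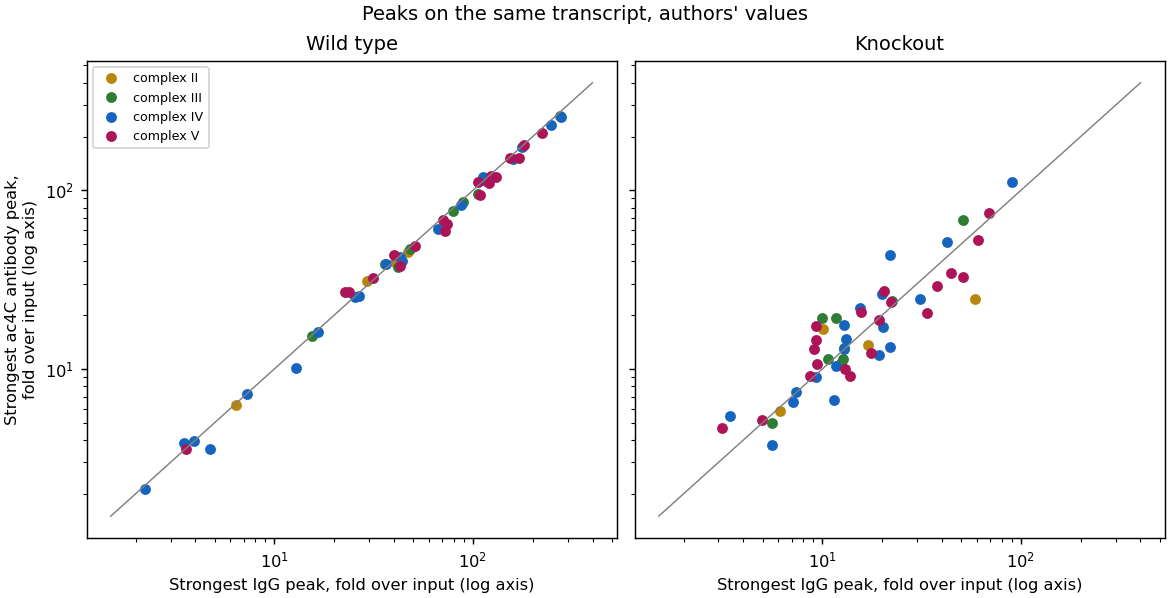
Fold over input of the strongest ac4C antibody peak (y axis, log) and the strongest IgG peak (x axis, log) on the same first-numbered transcript in wild type (left, 51 genes) and knockout (right, 52 genes), coloured by complex, with the line of equal values. Wild type points lie along the line, with 11 above it, and knockout points scatter on both sides, with 27 above it.

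Antibody peaks clear of every IgG peak were few in wild type, where IgG peaks left little room for them. IgG peaks covered a median of 91.6% of a member's first-numbered transcript in wild type and 71.9% in knockout. Over all genes with such a peak it was 70.9% and 26.3%. Counts of clear peaks are limited by this coverage and give no measure of ac4C on these genes. By a looser rule, an antibody summit with no IgG summit within 100 bases, 13 members counted in wild type (25.1% of all genes) and 33 in knockout (37.7%). By the overlap rule there were 3 such peaks on 3 members (8.67% of all genes had any), namely SDHA-212 at 3.28-fold, COX4I1-217 at 2.81-fold and COX15-202 at 1.76-fold. The first of these is annotated as a nonsense-mediated decay transcript, the next as a retained intron and the last as protein-coding. In knockout, where NAT10 is reduced, 17 members had such a peak (26.6% of all genes). The 6 members with the highest folds were ATP5ME (11.9-fold on ATP5ME-205, a retained intron), ATP5F1D (6.67-fold on ATP5F1D-208), ATP5F1A (5.63-fold on ATP5F1A-211), SDHA (4.69-fold on SDHA-213), COX19 and COX11 (4.59-fold each). The knockout lists are longer, at 162944 antibody and 147469 IgG peaks against 92194 and 93329 in wild type, and the lists were set side by side without a test. SDHA, COX4I1 and COX15 had a clear peak in both genotypes. For SDHA and COX4I1 these lay on different transcripts, and for COX15 at bases 1690 to 1965 of COX15-202 in wild type and 1526 to 1980 in knockout.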

How the data were processed

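Per the file headers, the deposited RNA-seq and Ribo-seq tables hold raw read counts for each gene from alignments without duplicate reads. Tools named in the submitters' processing notes are STAR, featureCounts, cutadapt, Trimmomatic, SAMtools, DESeq2, Bowtie2, MACS2, bedtools and ChIPseeker with GRCh38.p13, without roles or versions. Strand use in counting is not stated there. Duplicate removal without molecular identifiers caps the counts of short, abundant transcripts most. The authors deposited peak lists on transcript coordinates, pooled over the libraries of a genotype per their names, with a fold over input at the summit and the −log10 q-value of the peak caller.

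Tests across genes used edgeR 4.0.16 (R 4.3.3) on the deposited counts (TMM scaling, filterByExpr, quasi-likelihood F test, Benjamini-Hochberg adjustment over all genes tested, threshold 0.05). The knockout RNA-seq pair was summed, by the chi-square check over genes with at least 20 summed counts. TMM factors for efficiency were computed within each assay, and that fit had 3 residual degrees of freedom, the footprint fit 2. The biological coefficient of variation was 9.12% in RNA, 12.0% in footprints and 7.13% in the efficiency fit. CPM is counts over the library total, without TMM factors. The fits were tested on simulated data. A clear antibody peak overlaps no IgG peak of its genotype by 1 base on the same transcript.

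Members, gene lists and tests were chosen with earlier results of these data known. Named with values are NAT10, members past the threshold, the highest and lowest of each complex and comparison, complex II, paralogue sets, the highest and lowest RNA level per length, and the 6 members with the highest clear peaks per genotype, with called and mitochondrially encoded genes of the partner lists. Other members are named to complete a role group. Length-scaled footprint levels were not used here, since coding lengths were not at hand. Alternatives were RLE scaling, no filter on low counts, DESeq2 1.42.0, knockout libraries kept apart, a replicate block, each replicate left out, and stricter or looser peak rules.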

Additional observations from a re-analysis of the deposited data

How the results depend on the processing

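RLE scaling kept the 10 RNA calls and the ATP5MF footprint call. The count of 10 RNA calls among members went to 16 without the filter on low counts, 3 with DESeq2, 24 with the knockout libraries kept apart (22 up, 2 down) and 20 with the replicate block, which also keeps them apart (18 up, 2 down). All-gene calls were then 3513, 1042, 5476 and 4983. Whether libraries of the same number belong together is not stated in the labels. Correlations of same-numbered deviations were -0.0138 in RNA and 0.231 in footprints. They rest on a single pair of libraries per genotype within each assay, so they cannot settle it. With the block the biological coefficient of variation of footprints was 7.77%, against 12.0% without it. In footprints the block gave 11 members (10 up, 1 down) and 1594 genes, no filter 3 members and 889 genes, and DESeq2 178 genes. In efficiency 0 members were called in every setting run, and genes called numbered 71 without the filter, 12 with DESeq2, and 5 with knockout RNA-seq libraries kept apart, with or without the block. The median RNA change of members was 0.22 without the filter.

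With replicates left out, RNA calls among members ranged from 9 to 35 and among all genes from 2077 to 7003, the high ends being fits without a wild type replicate, which keep the knockout libraries apart. The RNA median ranged from 0.10 to 0.19. Footprint calls ranged from 1 to 3 members, with COX7B and UQCRB added without knockout replicate 2, and from 264 to 716 genes. Efficiency calls ranged from 0 to 6 genes and the median from -0.13 to 0.10. ATP5MF footprints ranged from 0.81 to 1.26 and were called each time.

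Members that changed sign had not passed the test, and the cause was not tested. RNA values were then SDHD 0.07 without the filter and, with replicates left out, SDHD -0.08 to 0.07, UQCRHL -0.04 to 0.36, COX7A2L -0.01 to 0.03, SDHC -0.09 to 0.28, UQCRH -0.06 to 0.19 and UQCRB -0.18 to 0.01. Footprint ranges were COX7A2L -0.29 to 0.38, COX8A -0.02 to 0.09, SDHB -0.04 to 0.07, COX4I1 -0.23 to 0.11, SDHC -0.31 to 0.03, ATP5F1E -0.63 to 0.10 and UQCRH -0.03 to 0.28. Efficiency ranges were COX4I1 -0.14 to 0.20, COX6A1 -0.09 to 0.23, COX7A2L -0.31 to 0.41, COX6B1 -0.15 to 0.11, SDHB -0.08 to 0.05 and UQCRH -0.08 to 0.23.

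Members with a clear antibody peak in wild type numbered 1 at a fold of at least 3, and, by rules chosen after seeing the data, 1 on protein-coding transcripts alone and 13 where no IgG summit lay within 100 bases. In knockout the last 2 rules gave 11 and 33.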
